A study of Mus musculus with 5 samples.

Results

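Secondary granule and late neutrophil genes were examined in bone marrow-derived macrophages (BMDMs) that had been cocultured with cancer cells. The set held 10 genes of the 17058 listed in the deposited files: Ltf, Camp, Ngp, Lcn2, Cd177, Chil1, Itgb2l, Padi4, S100a8 and S100a9. They were chosen by symbol as genes known from the late stages of neutrophil maturation, and the values per transcript were summed over each gene. Earlier results of these data were known when the genes were chosen, so their counts beside all genes are not independent evidence. RNA-Seq was run on 5 libraries, 2 of BMDMs that spent 48 hours beside WT 4T1 cells and 3 of BMDMs that spent the same time beside Adam17-/- 4T1 cells. 4T1 is a mammary carcinoma cell line of the BALB/c mouse, and ADAM17 is a membrane protease that sheds ligands and receptors from the cell surface. The macrophages of both groups were differentiated with M-CSF-1 from the bone marrow of BALB/c mice and Adam17 was deleted not in them but in the 4T1 cells on the other side of a transwell membrane. A single knock-out designation (2.8) stands in the labels of the 3 Adam17-/- libraries, so loss of the gene and other traits of that line cannot be told apart. The labels do not say whether the libraries came from separate mice or cultures, and the p-values measure only the spread between these samples, which may be technical.

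Neutrophils fill their granules in sequence as they mature. Primary (azurophil) granule proteins such as myeloperoxidase are made first, at the promyelocyte stage, and secondary (specific) granule proteins such as lactoferrin follow at the myelocyte and metamyelocyte stages, when the transcription factor C/EBP epsilon acts. The alarmins S100A8 and S100A9 accumulate in the cytosol of the maturing cell and are also made by monocytes, and several other late genes can be expressed by activated macrophages.

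The members lie on 7 chromosomes in the mouse build GRCm38.p6 (RefSeq), with 3 of the secondary granule genes on chromosome 9 and both S100 genes on chromosome 3. Camp (chr9:109847377-109849456, minus strand) starts 570 kb from Ngp (chr9:110419808-110423012, plus strand), and Ngp starts 599 kb from Ltf (chr9:111019292-111042766, plus strand). S100a8 (chr3:90669071-90670034, plus strand) and S100a9 (chr3:90692630-90695721, minus strand) start 26.7 kb apart. The remaining members stand alone: Lcn2 (chr2:32384637-32387739), Cd177 (chr7:24743983-24760334), Itgb2l (chr16:96422288-96443664) and Padi4 (chr4:140745508-140774239) on the minus strand, and Chil1 (chr1:134182156-134190031) on the plus strand. The 250 bases before the start sites of Ltf, Ngp, Camp, S100a8 and S100a9 are printed so that members that share a chromosome can be read side by side. Capitals mark matches to the C/EBP pattern TTNNGNAA on either strand.
Ltf: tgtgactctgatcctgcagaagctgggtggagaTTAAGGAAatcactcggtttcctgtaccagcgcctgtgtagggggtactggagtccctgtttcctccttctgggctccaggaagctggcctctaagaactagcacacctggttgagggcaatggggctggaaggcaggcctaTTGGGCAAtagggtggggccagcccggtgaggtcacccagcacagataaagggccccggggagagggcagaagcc
Ngp: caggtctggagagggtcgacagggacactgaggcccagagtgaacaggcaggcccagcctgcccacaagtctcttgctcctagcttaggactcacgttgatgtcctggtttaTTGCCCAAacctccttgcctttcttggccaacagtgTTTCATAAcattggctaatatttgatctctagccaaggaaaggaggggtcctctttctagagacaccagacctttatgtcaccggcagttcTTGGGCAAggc
Camp: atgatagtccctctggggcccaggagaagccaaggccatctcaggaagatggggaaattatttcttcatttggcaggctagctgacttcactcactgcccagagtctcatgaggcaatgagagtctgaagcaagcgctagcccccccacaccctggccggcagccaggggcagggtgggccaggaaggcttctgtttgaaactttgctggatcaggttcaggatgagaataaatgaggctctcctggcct
S100a8: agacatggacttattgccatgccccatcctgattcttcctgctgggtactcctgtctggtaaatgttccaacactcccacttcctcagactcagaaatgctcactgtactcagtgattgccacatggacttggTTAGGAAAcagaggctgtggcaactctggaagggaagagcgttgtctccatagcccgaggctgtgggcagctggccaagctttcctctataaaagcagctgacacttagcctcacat
S100a9: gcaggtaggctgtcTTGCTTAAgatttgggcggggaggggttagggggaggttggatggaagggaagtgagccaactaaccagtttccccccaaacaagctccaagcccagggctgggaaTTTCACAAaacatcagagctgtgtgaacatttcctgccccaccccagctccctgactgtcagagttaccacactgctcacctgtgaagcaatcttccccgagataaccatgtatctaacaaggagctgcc
The windows were chr9:111019042-111019291 (plus) for Ltf, chr9:110419558-110419807 (plus) for Ngp, chr9:109849457-109849706 (minus) for Camp, chr3:90668821-90669070 (plus) for S100a8 and chr3:90695722-90695971 (minus) for S100a9. The C/EBP pattern stood at 217 and 75 bases before the Ltf start, at 138, 102 and 11 bases before the Ngp start, at 117 bases before the S100a8 start and at 236 and 130 bases before the S100a9 start. The windows of Cd177, Itgb2l and Padi4, which are not printed, run from the start site of the promoter table, which lies just inside the gene span given above. The pattern was found in 8 of the 10 member windows, the exceptions being Camp and Padi4, against 36.8% of the 32851 RefSeq promoter windows of the same length. The PU.1 pattern GAGGAAGT was found in 2 member windows (Itgb2l and S100a8), against 2.44% of all windows. An NF-kB pattern, GGGA and CC at a fixed spacing, was found in 1 (Chil1), against 17.6%, and TATAAA in 3 (Cd177, Padi4 and S100a8), against 12.4%. Both strands were searched. A match describes these letters only and is not a measured binding site. The motifs were chosen after the libraries were examined, so these shares are not independent evidence.

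The libraries held 14658694 to 20788373 counts, and 3 counts, taken as the floor, corresponded to 0.157 to 0.197 CPM (TMM-normalized counts scaled to 1e+06 per library). Replicates differed by more than sampling noise, with a chi-square statistic per degree of freedom of 25.7 between the WT libraries and 5.22 to 6.32 between the Adam17-/- libraries. Macrophage markers were present in every library, and the 17 genes of a fixed macrophage list all had enough counts to be tested. Their summed level was 62771 and 72866 CPM in the WT cocultures and 48670 to 54313 CPM in the Adam17-/- cocultures. Apoe made up the largest part of this sum, at 31003 and 40062 CPM with WT and 28218 to 31588 CPM with Adam17-/- 4T1 cells. Its groups overlapped. Of 7 epithelial genes only Cdh1 had enough counts to be tested, at 10.6 to 13.2 CPM in the 5 libraries, and the defining marker Epcam had 1 count in 1 WT library and 0 in the other 4. Genes were compared with edgeR's quasi-likelihood test and Benjamini-Hochberg (BH) adjustment over 12576 genes, and a gene was called where the adjusted p did not exceed 0.05 and the log2 fold change was at least 1 in size.

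Macrophages beside Adam17-/- 4T1 cells had more RNA of the 10 genes, by 1.83-fold for Cd177 to 7.64-fold for Itgb2l in the fitted fold change. By the edgeR adjusted p alone, 10 of 10 passed in that direction, as did 14.9% of all genes tested. With the limit on fold change, 9 of 10 were called higher, as were 3.36% of all genes tested. In 10 of 10, every Adam17-/- library lay above both WT libraries, which held for 28.4% of all genes tested. The median log2 fold change was 1.76 over the members and 0.01 over all genes tested. Camp and Itgb2l had fewer than 10 counts in both WT libraries, passed the filter on low counts through the Adam17-/- libraries, and so had to differ to be tested. Of the other 8 members, 7 were called. Bulk RNA-Seq cannot tell more cells of a type from more RNA per cell.

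**Figure D1:**
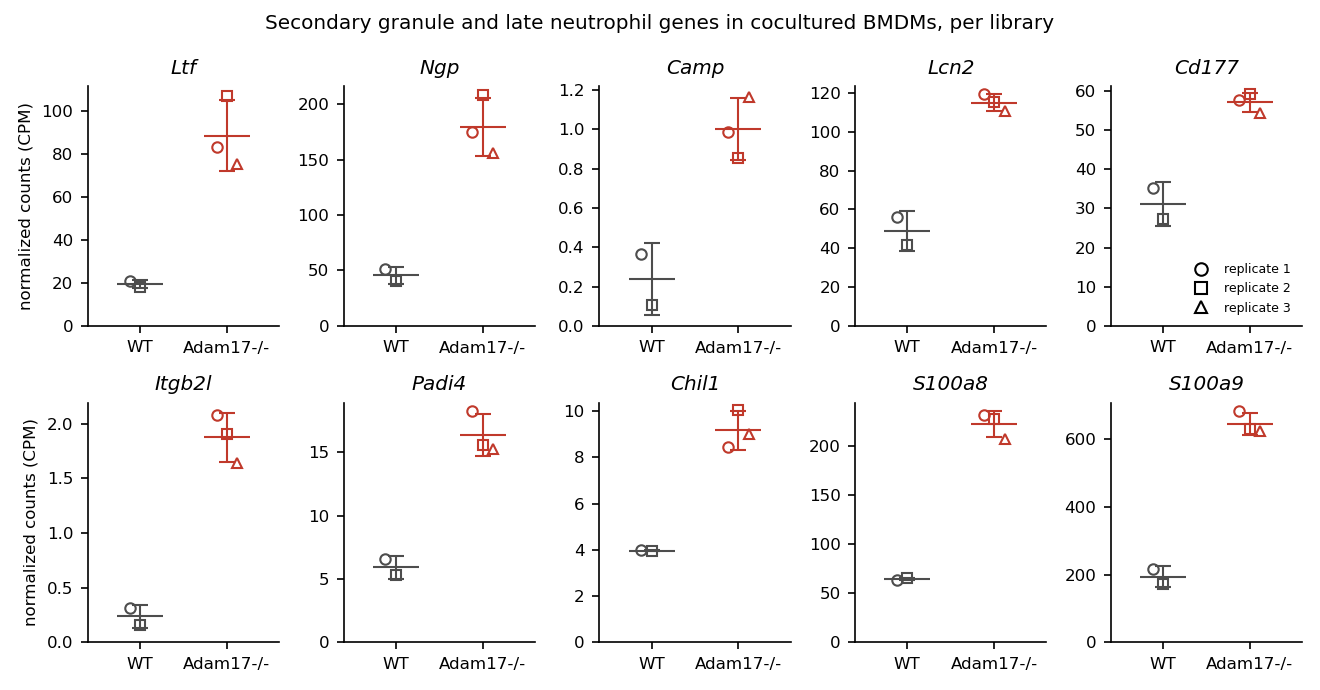
Each panel plots the normalized counts (CPM, linear axis from 0) of 1 gene in the 2 WT and 3 Adam17-/- coculture libraries, with bars for the mean and SD and marker shapes for the replicate. The groups do not overlap for any of the 10 genes, and the scale runs from about 1 CPM for Camp to 683 CPM for S100a9.

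Among the secondary granule proteins, Ltf encodes lactoferrin, which binds iron and withholds it from microbes. Ltf was at 20.8 and 18.2 CPM in the WT cocultures and at 83.4, 107 and 75.3 CPM in Adam17-/- replicates 1 to 3. The lowest Adam17-/- library was more than 50 CPM above the higher WT library. The means were 19.5 ± 1.83 CPM (SD, n = 2) and 88.7 ± 16.7 CPM (SD, n = 3), which is 2.18 in log2 fold change (SE 0.158, edgeR BH-adjusted p = 0.000145).

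Ngp, whose product is a cystatin-like protein of the granules, was at 50.9 and 40.3 CPM with WT and at 175, 208 and 156 CPM with Adam17-/- 4T1 cells. It had the same order of libraries as Ltf, with Adam17-/- replicate 2 highest and WT replicate 2 lowest. On the log2 scale the fold change was 1.97 (SE 0.146, edgeR BH-adjusted p = 0.000145), from means of 45.6 ± 7.50 (SD, n = 2) and 179 ± 26.3 CPM (SD, n = 3).

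Camp encodes the precursor of the antimicrobial peptide CRAMP, the only mouse cathelicidin. It was among the least counted members, with 7 and 2 counts in the WT cocultures and 18, 13 and 22 in the Adam17-/- cocultures. The groups did not overlap, but both WT libraries had fewer than 10 counts. Over the summed counts, 53 against 9, the ratio of normalized levels was 4.23 (95% exact interval 2.07 to 9.75, counting error only). The fitted log2 fold change was 2.04 (SE 0.508, edgeR BH-adjusted p = 0.0148), and it depended on the WT replicate: it was 3.13 without WT replicate 1 and 1.44 without WT replicate 2, where the adjusted p was 0.0712.

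Lcn2 encodes lipocalin-2, which binds bacterial siderophores and is also induced in macrophages by inflammatory signals. Its levels were 56.0 and 41.5 CPM in the WT cocultures and 119, 115 and 111 CPM in the Adam17-/- cocultures. The 3 Adam17-/- libraries lay closer together than the 2 WT libraries. The log2 fold change was 1.24 (SE 0.124, edgeR BH-adjusted p = 0.000384), with means of 48.8 ± 10.2 (SD, n = 2) and 115 ± 4.46 CPM (SD, n = 3).

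Chil1 encodes a chitinase-like protein that binds chitin without cleaving it and is stored in specific granules. It was at 3.98 and 3.95 CPM with WT and at 8.43, 10.1 and 9.0 CPM with Adam17-/- 4T1 cells. The WT libraries were nearly equal and all 3 Adam17-/- libraries were more than 4 CPM above them. The log2 fold change was 1.20 (SE 0.155, edgeR BH-adjusted p = 0.000900), with means of 3.96 ± 0.0189 (SD, n = 2) and 9.17 ± 0.830 CPM (SD, n = 3).

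Of the surface proteins, CD177 is a GPI-anchored glycoprotein of neutrophils that binds PECAM-1. Cd177 was at 35.2 and 27.3 CPM in the WT cocultures and at 57.7, 59.2 and 54.3 CPM in the Adam17-/- cocultures. It differed least among the members and was the one not called, although its groups did not overlap. The log2 fold change was 0.87 (SE 0.117, edgeR BH-adjusted p = 0.00105). It passed the limit of 1 without WT replicate 1 (1.06), whereas it was 0.69 without WT replicate 2, and it also passed with library size only (1.02) and with limma on log2(FPKM + 0.1) (1.02).

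Itgb2l encodes an integrin beta subunit related to the leukocyte integrin beta-2 chain. It was counted 6 and 3 times in the WT cocultures and 38, 29 and 31 times in the Adam17-/- cocultures. Every Adam17-/- library had more than 4 times the count of either WT library. The ratio over the summed counts, 98 against 9, was 7.82 (95% exact interval 3.95 to 17.6, counting error only), and the fitted log2 fold change was 2.93 (SE 0.404, edgeR BH-adjusted p = 0.00116). The span of Itgb2l overlaps Igsf5, which had 1 count in 1 library and 0 in the other 4.

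Padi4 encodes the enzyme that turns arginine into citrulline in histones, a step in the release of neutrophil extracellular traps. Padi4 was at 6.59 and 5.30 CPM with WT and at 18.3, 15.6 and 15.3 CPM with Adam17-/- 4T1 cells. All Adam17-/- libraries were above 15 CPM and both WT libraries below 7 CPM. Padi4 had a log2 fold change of 1.46 (SE 0.151, edgeR BH-adjusted p = 0.000413). Its deposited counts did not sum to whole numbers, so that some of its reads may have been shared with other genes and the level is uncertain to that extent.

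S100a8 and S100a9 encode the calcium-binding subunits of calprotectin, which is abundant in the cytosol of neutrophils and monocytes. S100a8 was at 63.6 and 65.5 CPM in the WT cocultures and at 232, 227 and 207 CPM in the Adam17-/- cocultures. S100a9 was at 216 and 173 CPM in the WT cocultures and at 683, 630 and 625 CPM in the Adam17-/- cocultures. The groups were far apart for both, and the pair differed to a like extent. The log2 fold change was 1.78 for S100a8 (SE 0.0900, edgeR BH-adjusted p = 5.15e-05) and 1.73 for S100a9 (SE 0.112, edgeR BH-adjusted p = 0.000115). The means were 64.6 ± 1.30 (SD, n = 2) and 222 ± 13.3 CPM (SD, n = 3) for S100a8, and 194 ± 30.6 (SD, n = 2) and 646 ± 31.9 CPM (SD, n = 3) for S100a9.

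Levels were compared between genes in FPKM (fragments scaled to transcript length and library size), as deposited and summed per gene. S100a9 was the highest member in both groups, with a mean of 390 ± 48.7 FPKM in the WT (SD, n = 2) and 1438 ± 81.0 FPKM in the Adam17-/- cocultures (SD, n = 3). S100a8 followed at 188 ± 9.81 and 715 ± 49.0 FPKM. Below them in the WT cocultures came Lcn2 (58.2 FPKM), Ngp (38.6), Cd177 (10.97), Ltf (6.83), Chil1 (2.28), Padi4 (2.17), Camp (0.415) and Itgb2l (0.085). Neighbours in this order did not overlap except Chil1 and Padi4. Camp had 7 and 2 counts and Itgb2l 6 and 3 in the WT libraries, so their order there is uncertain. In the Adam17-/- libraries the order below S100a8 was Ngp (169 FPKM), Lcn2 (153), Ltf (34.5), Cd177 (22.3), Padi4 (6.62), Chil1 (5.83), Camp (1.97) and Itgb2l (0.767). There the libraries of Ngp overlapped those of Lcn2, and those of Padi4 overlapped those of Chil1. The order of Ltf and Cd177 was reversed between the groups without overlap: the FPKM ratio of Ltf to Cd177 was 0.589 and 0.664 in the WT cocultures and 1.44, 1.81 and 1.38 in the Adam17-/- cocultures.

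**Figure D2:**
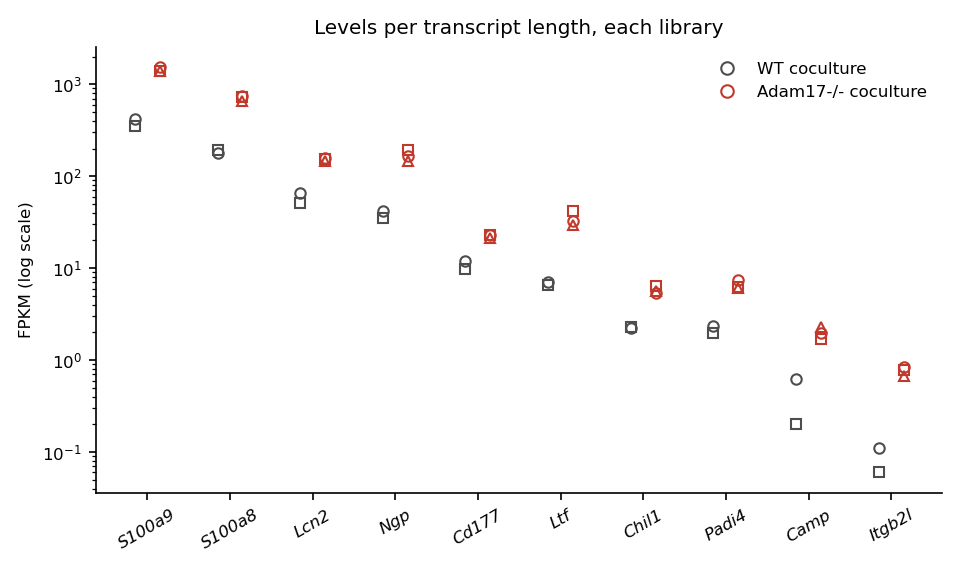
The level of each of the 10 genes in FPKM (log axis) is plotted for the WT and the Adam17-/- coculture libraries, with 1 point per library. S100a9 and S100a8 head both groups, Itgb2l is lowest in both, and Ltf lies below Cd177 in the WT and above it in the Adam17-/- cocultures.

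The members together took 0.0417% and 0.0361% of the counts in the WT cocultures and 0.145%, 0.143% and 0.130% in the Adam17-/- cocultures. S100a8 and S100a9 made up 61.6% to 66.3% of the members' counts in every library. The FPKM ratio of S100a9 to S100a8 was 2.35 and 1.83 in the WT cocultures and 2.04, 1.91 and 2.09 in the Adam17-/- cocultures, and these groups overlapped. On the log2 CPM scale the reverse ratio, S100a8 to S100a9, was higher by 0.04 in the Adam17-/- cocultures (exact permutation p = 0.9, two-sided, BH-adjusted p = 0.9 over 9 ratios to S100a9).

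The ratios of the other members to S100a9, on the log2 CPM scale, are given as values. The exact permutation test used for them cannot pass the threshold with 2 libraries against 3. The mean difference between Adam17-/- and WT cocultures in this ratio was -0.86 for Cd177, -0.53 for Chil1, -0.49 for Lcn2, -0.27 for Padi4 and 0.43 for Ltf. It was 1.31 for Itgb2l, whose low WT counts are given above. The groups did not overlap in these 6 ratios. For them the exact two-sided permutation p was 0.1 (BH-adjusted p = 0.15), the smallest that 2 libraries against 3 can give. The ratios of Ngp (0.24, exact permutation p = 0.3, groups not overlapping) and Camp (0.58, exact permutation p = 0.4, groups overlapping) did not reach that value. The ratio of Ngp to Camp in FPKM ranged from 64.1 to 175 over the 5 libraries and overlapped between the groups. Its highest value came from WT replicate 2, where Camp had 2 counts, below the floor of 3.

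The members were even across the Adam17-/- libraries. The highest of these 3 libraries exceeded the lowest by 1.08 to 1.43 times (median 1.19), and the highest value fell in replicate 1 for 5 genes, in replicate 2 for 4 and in replicate 3 for 1. The 31 tested genes of a further late neutrophil list had a like median ratio of 1.19 (1.03 to 1.65). Primary granule genes were less even. Of 7 such genes (Mpo, Elane, Prtn3, Ctsg, Ms4a3, Prss57 and Fcnb), 7 were highest in Adam17-/- replicate 2, with a ratio of highest to lowest of 1.18 to 8.77 (median 2.53).

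Mpo, the gene of myeloperoxidase, was at 13.5 and 6.76 CPM in the WT cocultures and at 14.4, 63.2 and 18.5 CPM in the Adam17-/- cocultures. At a log2 fold change of 1.64 it did not pass (edgeR BH-adjusted p = 0.0581). By the edgeR adjusted p, 3 of the 7 primary granule genes were higher and 0 lower, against 14.9% and 16.8% of all genes tested, with a list median log2 fold change of 1.54. Without Adam17-/- replicate 2 that median was 0.78, and it was 1.96 without WT replicate 1 and 1.02 without WT replicate 2. Those that passed were Ms4a3 (log2 fold change 2.41, a membrane protein of granulocyte and monocyte progenitors), Elane (1.54, neutrophil elastase) and Prtn3 (0.78, proteinase 3). Ms4a3 had 6 and 8 counts in the WT cocultures, so that it passed the filter on low counts through the Adam17-/- libraries and had to differ to be tested. The number passing was 6 without Adam17-/- replicate 1 and 3 without Adam17-/- replicate 2. In these settings 8.73% and 9.96% of all genes tested were higher. Without Adam17-/- replicate 2, the log2 fold changes of the 10 members had a median of 1.78. In that setting 9 members were called higher, as were 365 of the 12451 genes tested.

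**Figure D3:**
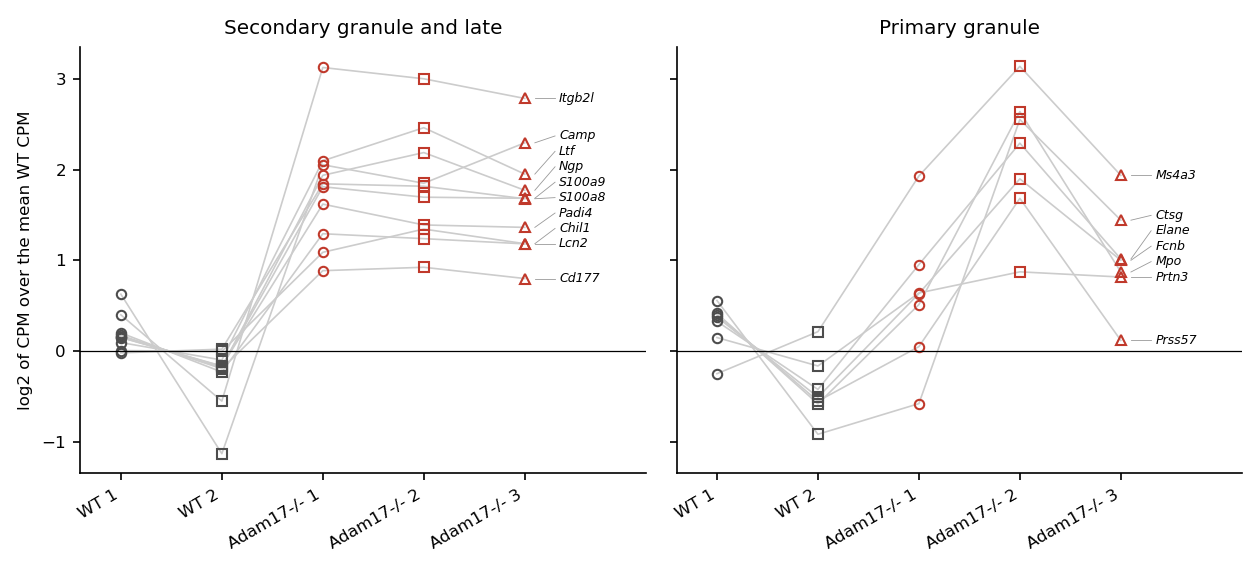
The log2 of the CPM over the mean WT CPM is plotted in each of the 5 libraries for the 10 secondary granule and late genes (left) and 7 primary granule genes (right), with grey lines joining the points of 1 gene. The left genes differ by at most 1.43 times across the Adam17-/- libraries, and 4 of them are highest in Adam17-/- replicate 2. The 7 right genes are all highest in that replicate, Prtn3 by little.

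A further list of 32 late neutrophil genes was compared, of which 31 were tested. By the edgeR adjusted p, 17 were higher, 6 were lower and 8 did not pass, against 14.9% of all genes tested that were higher and 16.8% that were lower. Calls were made for 12 higher and 1 lower, against 3.36% and 0.867% of all genes tested. The list's median log2 fold change was 0.70, below that of the members. Olfm4 (olfactomedin 4, a specific granule protein of a subset of neutrophils) had means of 3.87 and 17.6 CPM (log2 fold change 2.18, edgeR BH-adjusted p = 0.000203). Ly6g, the surface antigen that defines mouse neutrophils, was at 2.46 and 1.84 CPM in the WT cocultures and at 7.44, 6.51 and 8.95 CPM in the Adam17-/- cocultures (log2 fold change 1.83, edgeR BH-adjusted p = 0.000641). Ceacam10 (2.24, but 3.67 without WT replicate 1 and 1.54 without WT replicate 2) and Pglyrp1 (1.67, a peptidoglycan-binding granule protein) were also called higher. Ceacam10 had 14 and 3 counts in the WT cocultures and likewise needed the Adam17-/- libraries to pass the filter. Bpi had 1 count in all and was not tested.

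Among these late genes, the 17 higher ones had WT means of 0.448 to 376 CPM (median 5.42), and the 6 lower genes had WT means of 29.7 to 2953 CPM (median 196), ranges that overlap. Adam8, a membrane metalloprotease of myeloid cells, was at 2953 and 1340 CPM (log2 fold change -1.14, edgeR BH-adjusted p = 0.000396). The other lower genes were Ifitm6 (-0.93), Mmp9 (-0.65, gelatinase B of tertiary granules), Ltb4r1 (-0.59), Trem1 (-0.58) and Slpi (-0.38), and Slpi lost its pass in 10 of 13 alternative settings. Mmp8, the neutrophil collagenase of specific granules, was at 970 and 1068 CPM (log2 fold change 0.14, edgeR BH-adjusted p = 0.318), and so did not pass.

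**Figure D4:**
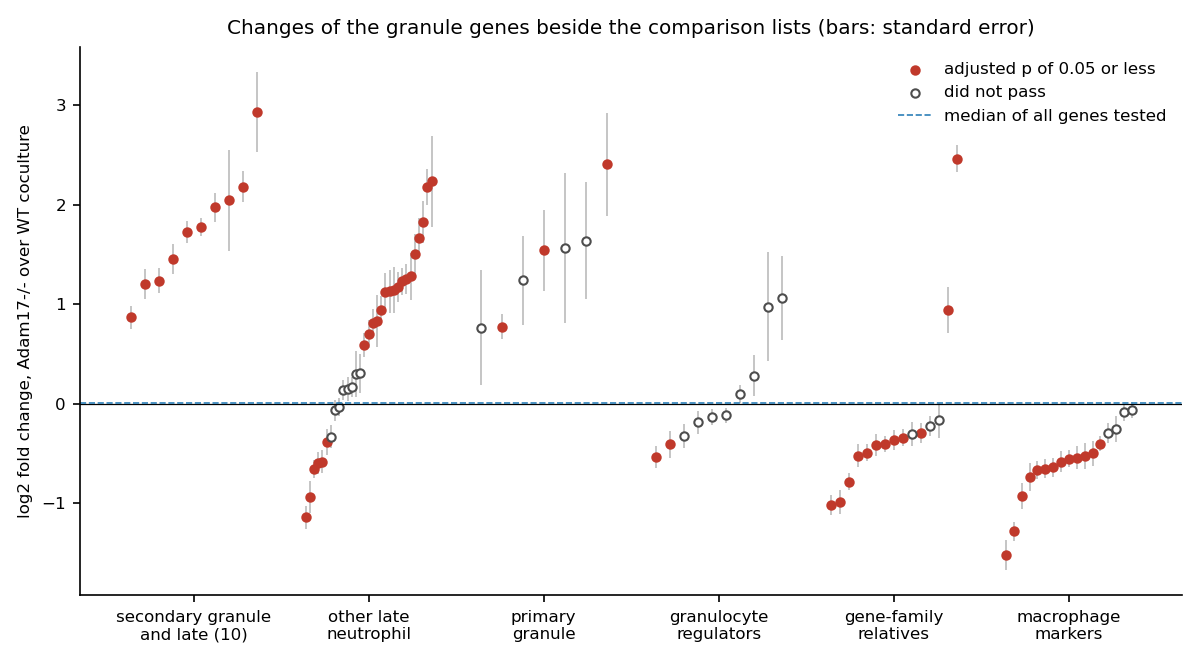
The log2 fold change (Adam17-/- over WT coculture, edgeR) of each tested gene is plotted by gene list, with bars for the SE and filled points for genes that passed the adjusted p of 0.05. The 10 members lie between 0.87 and 2.93, the other late genes spread from -1.14 to 2.24, and the 17 macrophage markers lie below 0 (15 of them with library size only).

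Genes of the same families as the members did not follow them as a whole. Of 33 relatives, 15 were tested, and by the edgeR adjusted p 2 were higher and 10 lower (list median log2 fold change -0.36), against 14.9% and 16.8% of all genes tested. The number lower was 5 without Adam17-/- replicate 1, 6 without Adam17-/- replicate 2, 6 with library size only and 5 in each FPKM fit. The other 14 S100 genes listed gave 6 tested, of which 0 were higher and 5 lower, with log2 fold changes of -1.02 to -0.29. At an unadjusted p under 0.05, 0 were higher, likewise by DESeq2. S100a4, which like S100a8 and S100a9 lies in the S100 cluster of chromosome 3, had means of 91.6 and 45.3 CPM (log2 fold change -1.02, edgeR BH-adjusted p = 0.000360). The fold changes of these 6 genes were below 0 under each of the 13 alternatives. However, the number passing was 2 with library size only, 1 in each FPKM fit, and 2 without Adam17-/- replicate 1 or replicate 2. S100a10 lost its pass in 11 of the 13.

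Chil3, the chitinase-like gene for Ym1, made by neutrophils and by alternatively activated macrophages, was at 9.73 and 7.58 CPM in the WT cocultures and at 49.7, 50.7 and 43.3 CPM in the Adam17-/- cocultures. It thus had a larger fitted difference than Chil1 (log2 fold change 2.46, edgeR BH-adjusted p = 6.18e-05), and its groups did not overlap. Itgb2, the beta-2 integrin chain and relative of Itgb2l, had means of 1537 and 895 CPM (log2 fold change -0.78, edgeR BH-adjusted p = 0.000550). Itgb3 was higher (0.95, edgeR BH-adjusted p = 0.0135). Plaur, a relative of Cd177 and the receptor of urokinase, was lower (-0.99, edgeR BH-adjusted p = 0.000684), as Itgb1, Itgb5 and Itgb7 were, though Itgb5 lost its pass in 5 of the 13 alternatives and Itgb1 in 1. Padi2, the other peptidylarginine deiminase with counts to test, was at 13.4 and 11.9 CPM (log2 fold change -0.16, edgeR BH-adjusted p = 0.504). Trf, the transferrin gene related to Ltf, had a log2 fold change of -0.22 (edgeR BH-adjusted p = 0.113).

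Of 18 genes for receptors and binding partners of the members' proteins, 16 had counts and were tested, and by the edgeR adjusted p 3 were higher, 5 lower and 8 did not pass, with a list median log2 fold change of -0.04. Over all genes tested, 14.9% were higher and 16.8% lower. The number of partners that was higher was 5 without WT replicate 1, 2 without WT replicate 2 and 1 without Adam17-/- replicate 3, and 2 by DESeq2 to 6 with library size only. Tlr4, a receptor for S100A8 and S100A9, was at 309 and 299 CPM (log2 fold change -0.05, edgeR BH-adjusted p = 0.854). Ager, another receptor of the pair, was higher at 3.21 and 5.45 CPM (log2 fold change 0.76, edgeR BH-adjusted p = 0.0178), a pass lost in 2 of 13 alternatives. Itgam, the alpha-M chain that pairs with Itgb2, was lower (-0.64, edgeR BH-adjusted p = 0.00172), and so was Lrp1, a scavenger receptor that binds lactoferrin (-0.54, edgeR BH-adjusted p = 0.00538). Itgax, whose pass was lost in 4 of the 13, and Prtn3 were the other 2 that were higher. Cd14, Mmp9 and Tmem219, a partner of the Chil1 product, were the other 3 that were lower, and Tmem219 lost its pass in 9 of the 13. Lrp2 and Il13ra2 had no count in any library.

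Transcription factors and signals known to act on late granule genes were also compared. Of 11 such genes 10 were tested, and by the edgeR adjusted p 0 were higher and 2 lower, with a list median log2 fold change of -0.12. Over all genes tested, 14.9% were higher and 16.8% lower. The number of the list that was lower was 4 without WT replicate 2 and 1 with any other library left out. At an unadjusted p under 0.05, 1 was higher (Klf5, log2 fold change 1.07), and it passed the filter through the Adam17-/- libraries, with 7 and 8 counts in the WT cocultures. By the adjusted p, 0 were higher in DESeq2 and 1 (Klf5) in limma on either FPKM scale. Cebpe, which encodes C/EBP epsilon, was at 3.24 and 3.30 CPM in the WT cocultures and at 3.78, 4.87 and 3.39 CPM in the Adam17-/- cocultures. These groups did not overlap, but the log2 fold change of 0.28 did not pass (edgeR BH-adjusted p = 0.323). Gfi1, a repressor needed for granulocyte maturation, was near 1 CPM and below (log2 fold change 0.98, edgeR BH-adjusted p = 0.200). Spi1, the gene of PU.1, was lower (-0.53, edgeR BH-adjusted p = 0.00626), and Cebpd was lower (-0.41, edgeR BH-adjusted p = 0.0433) but lost its pass in 9 of the 13 alternatives. Csf3, the gene of the granulocyte growth factor G-CSF, had 0 to 2 counts per library, and its receptor gene Csf3r, a gene of the late list, was at 376 and 566 CPM (log2 fold change 0.59, edgeR BH-adjusted p = 0.00569).

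Macrophage markers moved against the members. By the edgeR adjusted p, 0 of the 17 were higher and 13 lower (list median log2 fold change -0.55), as 16.8% of all genes tested were lower. Cd163 (-1.52) and Mrc1 (-1.28), both endocytic receptors and both read by the study from these libraries, differed most, followed by Cd68 (-0.93) and C1qc (-0.73). At an unadjusted p under 0.05, 0 were higher, likewise by DESeq2. With library size only, 12 were lower and 2 of the 17 had a fold change above 0, while the median over all genes tested went from 0.01 to 0.16. The part of these markers in the members' difference was not tested.

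Markers of other cell types that bone marrow could hold were also measured, by the edgeR adjusted p. Of all genes tested, 14.9% were higher and 16.8% lower. Lists with 1 or 2 genes tested are too small to set against these shares. Of 6 eosinophil genes 3 were tested and 1 was higher, Siglecf (log2 fold change 1.65), while Epx and Prg2, which encode granule proteins of eosinophils, did not pass. Prg2 did pass without Adam17-/- replicate 1 and with no filter. Of 5 megakaryocyte genes 4 were higher, led by Gp9 (1.67), with a summed level of 48.2 and 52.8 CPM in the WT and 78.2 to 129 CPM in the Adam17-/- cocultures. Gp1ba did not pass without Adam17-/- replicate 2 or 3, which left 3 higher. The erythroid gene Hba-a1 (1.47), the dendritic cell gene Ccr7 (1.32) and the fibroblast gene Col3a1 (1.58) each passed, of 1, 4 and 4 genes of their list tested. Col1a1 of the fibroblast list also passed without Adam17-/- replicate 1 and with no filter. Up to 3 dendritic cell genes were higher, with library size only. Cd209a of the dendritic list lay below 0 in every setting (log2 fold change -0.58 in the main fit, where it did not pass). Without WT replicate 1 the log2 fold change of Hba-a1 was 2.43 and that of Ccr7 1.96, and without WT replicate 2 that of Hba-a1 was 0.91. The summed level of the 5 fibroblast genes was 24.2 to 46.0 CPM in 4 libraries and 107 CPM in Adam17-/- replicate 3. Of the basophil and mast cell, B cell, T cell and epithelial lists, 0 genes passed of 1, 2, 1 and 1 tested by edgeR. At an unadjusted p under 0.05 the basophil and mast cell gene Gata2 was higher (0.94) and the others were not. By DESeq2 0 passed. Gata2 did pass by limma on either FPKM scale and, in edgeR, with library size only, with no filter, without WT replicate 1 and without Adam17-/- replicate 1. The part of these cell types was not tested.

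Genes near the members on the chromosome were compared, with no test of the shares. Of 48 tested genes that start within 200 kb of a member, 4 were higher by the edgeR adjusted p (8.33%, against 14.9% of all genes tested) and 12 lower (16.8% of all genes tested were lower), and their median log2 fold change was -0.14. Among the 4 was Ceacam10, which lies near Cd177 and stands in the late list. Around Ltf 0 of 5 and around Camp 0 of 4 neighbours were higher. Around S100a8 and S100a9, 3 of 7 and 3 of 5 were lower and 0 higher, and these neighbourhoods share genes.

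The genes with the profile most like the members' mean were found by the Euclidean distance of centred log2 CPM over the 5 libraries, among 9741 genes of mean CPM of 5 or more outside the set. The nearest was Adam19 (distance 0.117), at 10.5 and 7.47 CPM in the WT cocultures and at 30.5, 29.1 and 26.3 CPM in the Adam17-/- cocultures, with a fitted log2 fold change of 1.67. Next came Mgam, Rflnb, Pglyrp1, Crispld2, Mctp2, Siglecf, Kcnn3, Tbx6 and Mirt2, at distances of 0.200 to 0.376 and with fitted log2 fold changes of 1.35 to 1.97. Pglyrp1 stands in the list of other late neutrophil genes and Siglecf in the eosinophil list. The distance uses the same 5 libraries and the same contrast as the values above and describes likeness only.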

How the data were processed

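RNA of cocultured BMDMs was sequenced by the authors on a BGISEQ-500 and aligned to GRCm38 with HISAT. The submitters' processing notes also name mm10, Bowtie2, Bowtie, RSEM and DESeq2, and versions are not given in the sources used here. For each transcript the authors deposited an expected count, which is an estimate and not normalized, and an FPKM value, normalized to transcript length and library size; the deposited transcript length was not tested. Transcripts under 0.01 FPKM were not listed and were taken as 0. Expected counts were summed per Entrez gene, rounded and put to the quasi-likelihood test of edgeR 4.0.16 (R 4.3.3; TMM factors, filterByExpr, no covariates) over 12576 genes. SEs were the log2 fold change divided by the root of F. RefSeq symbols matched 17015 of 17058 gene IDs. Distances between genes run from start site to start site by strand. Whether reads were counted by strand is not known, and reads of overlapping or antisense genes cannot be told apart.

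The 10 members and the comparison lists (16 lists, members included) were chosen with earlier results of these data known, several genes among them stand in the study's own table of called genes, and the motifs were chosen after the libraries were examined, so that none is independent evidence. Named genes were all members, up to 4 genes per list with the largest change among those that passed, genes of the members' families and partners where compared, and the 10 nearest profiles; Mpo, Ctsg, Prss57, Fcnb, Mmp8, Bpi, Cebpe, Gfi1, Klf5, Gata2, Csf3, Csf3r, Epx, Prg2, Col1a1, Epcam, Cdh1, Gp1ba and the remaining lower late genes were named after their values were seen. Apoe and Cd209a were likewise named after their values were seen. The alternatives tried were upper quartile factors, DESeq2 1.42.0, scaling by library size only, and limma 3.58.1 on log2(FPKM + 0.1) or log2(FPKM + 1). Other filters, a replicate block and leaving out each library were also tried. Levels, tests over ratios and figures used Python 3.11.15, pandas 2.3.3, SciPy 1.17.1 and matplotlib 3.10.9. Scripts were tested on simulated data. Intervals cover counting error only.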

Additional observations from a re-analysis of the deposited data

How the results depend on the processing

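Over 13 alternatives that gave 127 values for the members, 126 kept their direction and their side of the adjusted p threshold, 0 turned direction, and 1 no longer passed (Camp without WT replicate 2, 1.44). DESeq2 gave no adjusted p for Camp. The number of members called higher was 9, and 7 to 10 over the alternatives (8 to 10 with a library left out). With at least 10 counts in every sample it was 7 because Camp and Itgb2l were not tested, and with log2(FPKM + 1), which understates low genes, Itgb2l had a log2 fold change of 0.70. The number of primary granule genes passing was 3, but 5 with library size only, 6 with no filter on low counts, and 3 to 6 with a library left out. With a library left out, 21 to 26 of the other late genes passed (23 with all libraries) and 11 to 15 macrophage markers (13 with all libraries). Library size only moved the calls over all genes from 422 higher and 109 lower to 639 and 57, log2(FPKM + 0.1) to 499 and 51, upper quartile factors to 488 and 82, log2(FPKM + 1) to 120 and 30, DESeq2 to 297 and 89, and leaving out WT replicate 2 to 449 and 176. By the adjusted p alone, 14.9% of all genes were higher and 16.8% lower, but 24% and 8.56% with library size only, 9.67% and 8.95% with the replicate block, and 8.73% and 7.42% without Adam17-/- replicate 1, so that a list's count reads against a different share in each. The causes of these shifts were not tested. The groups share replicate numbers 1 and 2, and the labels do not state a pairing. Deviations from the group means of samples with the same number correlated at r = -0.12 and -0.05. With 2 WT libraries, whose deviations mirror each other, these values cannot decide whether the samples were paired. With the replicate block, 349 genes were called higher and 122 lower, 9 members were called and 5 primary granule genes passed. With a WT library left out, the lone WT library is assumed to vary like the others. Depth limits Camp and Itgb2l, whose WT counts were 2 to 7 per library.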
